A study of Homo sapiens with 12 samples.

Results

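Aminoacyl-tRNA synthetases, the enzymes that join each amino acid to its transfer RNA, were followed by their messenger RNA levels in the human fetal lung fibroblast line WI-38 after knockdown of YAP and TAZ, of cGAS or of STING. The members were the 36 synthetase genes of the expression table whose symbols are on the list of members, 20 coding for cytosolic enzymes (older symbols without a final 1, such as AARS) and 16 for mitochondrial enzymes (symbols ending in 2, such as AARS2). All 36 were found among the 13937 genes of the table, and all 36 passed the filter that left 13894 genes to test.

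The 12 libraries fell into 6 groups of 2, all from WI-38 fibroblasts that received small interfering RNAs (siRNAs) by lipid transfection. The control group received only control siRNA (siAS in the labels). The YT group received YAP and TAZ siRNAs with control siRNA, the cGAS group cGAS siRNA with control siRNA, and the STING group STING siRNA with control siRNA. The cGAS_YT and STING_YT groups received the YAP and TAZ siRNAs together with cGAS or STING siRNA. No group was left untransfected, so that all groups received siRNA. Each target had a single siRNA condition beside the same control siRNA. Loss of the target and other effects of its siRNA therefore cannot be told apart. The titles mark the cGAS and STING siRNAs with 4x, which the labels do not explain, and siRNA sequences, doses and times were not given in the sources used here. Nothing says that the 2 libraries of a group came from separate cultures, so every p-value rests on library-to-library spread alone, and that spread may be technical.

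YAP and TAZ are transcriptional coactivators of the Hippo pathway. cGAS senses DNA in the cytosol and signals through STING to interferon and inflammatory genes. A synthetase reads 1 amino acid and its matching transfer RNAs, and the charged transfer RNA then goes to the ribosome. Cytosolic and mitochondrial ribosomes are served by separate enzymes, nearly all of them coded in separate nuclear genes, although some genes, such as GARS and KARS, give both forms and so have no separate mitochondrial gene among the members. Several cytosolic enzymes (EPRS, IARS, LARS, MARS, QARS, RARS, KARS and DARS) are bound into a multisynthetase complex by the scaffold proteins AIMP1, AIMP2 and EEF1E1. The transcription factor ATF4, which is translated when amino acids run short or the endoplasmic reticulum is stressed, raises many cytosolic synthetase genes, and WARS is a classical target of interferon-gamma.

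ATF4 acts through a composite element that it binds with a C/EBP partner, and the letters of this element are shown because they occurred mostly in promoters of cytosolic members. RefSeq promoter sequences on GRCh38.p14, from 250 bases before to 50 bases after each start site, were matched for 30 of the 36 members, while DARS, LARS, VARS, YARS, AARS2 and VARS2 had no entry. The letters TGATGNAA, on either strand, occurred in the promoters of 7 of 16 cytosolic members and of 1 of 14 mitochondrial members, YARS2. Over all 27305 genes with a promoter sequence, 4.46% held them. The windows below are 30 bases of the gene's own strand, 5′ to 3′, with the matched letters, or their reverse complement, in capitals.
AARS: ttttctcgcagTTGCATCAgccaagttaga
CARS: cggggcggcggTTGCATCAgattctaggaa
IARS: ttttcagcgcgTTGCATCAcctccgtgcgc
MARS: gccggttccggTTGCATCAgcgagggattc
TARS: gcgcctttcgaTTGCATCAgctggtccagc
GARS: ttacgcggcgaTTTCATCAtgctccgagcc
NARS: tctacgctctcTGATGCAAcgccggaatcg
YARS2: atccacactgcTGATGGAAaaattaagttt
In AARS, CARS, IARS, MARS and TARS the matched letters were the same 8 bases, and NARS held their reverse complement. The windows lie at chr16:70289675-70289704 (minus strand, AARS), chr11:3057407-3057436 (minus, CARS), chr9:92293692-92293721 (minus, IARS), chr12:57488053-57488082 (plus, MARS), chr5:33440956-33440985 (plus, TARS), chr7:30594834-30594863 (plus, GARS), chr18:57621804-57621833 (minus, NARS) and chr12:32756076-32756105 (minus, YARS2). A match describes letters only and was not measured as a bound site.

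Interferon-responsive promoters carry an interferon-stimulated response element, searched as GAAA and GAAA held 2 bases apart on either strand. WARS was the only 1 of 16 cytosolic members with a match, EARS2 the only 1 of 14 mitochondrial members, and 4.38% of all genes held one. The WARS window, at chr14:100375383-100375412 on the minus strand, is shown because WARS is the member with a textbook interferon response.
WARS: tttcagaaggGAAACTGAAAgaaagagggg

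The libraries held 17790774 to 20650727 reads. In the groups given YAP and TAZ siRNAs the mean YAP1 level was 13.1 to 21.1% of the control mean and WWTR1 (TAZ) 8.70 to 14.2%. The cGAS gene (MB21D1) was at 18.7 and 23.5% in its 2 groups, and the STING gene (TMEM173) at 6.67 and 7.39%. All 8 fibroblast markers examined were present, with COL1A1 between 9251 and 21140 CPM (reads scaled to a common library size, the unit of the deposited table). Of 8 markers of epithelial, endothelial and blood cells, KRT15 reached at most 4.77 CPM and CD14 at most 1.14 CPM, and no value was found for the other 6 (EPCAM, CDH1, PECAM1, CDH5, PTPRC and CD3E).

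Cytosolic synthetase transcripts were far more abundant than mitochondrial ones. In these libraries a transcript gives about 1 fragment from its 3′ end, so that levels in CPM can be set side by side without a length correction. In control cells the cytosolic genes ran from 39.5 CPM (HARS) to 437 CPM (TARS) with a median of 169 CPM, and the mitochondrial genes from 5.34 CPM (NARS2) to 73.2 CPM (IARS2) with a median of 11.7 CPM. None of 20 cytosolic genes and 14 of 16 mitochondrial genes were below 30 CPM. IARS2, RARS2 and CARS2 were the mitochondrial genes with the highest control levels, at 77.2 and 69.2, 61.1 and 62.4 and 21.95 and 26.5 CPM in control replicates 1 and 2. Low genes were measured less precisely: over all tested genes the median standard error of a log2 change was 0.21 below 30 CPM and 0.10 at 30 CPM or more.

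Summed over each class, the cytosolic enzymes were lowest in cells that received cGAS and YAP/TAZ siRNAs together. The cytosolic sum was 3778 and 4028 CPM in control, 3403 and 3748 in YT, 3464 and 3562 in cGAS, 2838 and 2788 in cGAS_YT, 3772 and 3623 in STING, and 3660 and 3625 in STING_YT. Both cGAS_YT libraries lay below all 10 others, at 72.1% of the control mean, whereas the other 4 siRNA groups stood at 90.0 to 94.7%. The mitochondrial sum was 290.8 and 290.4 CPM in control, 252.0 and 247.5 in YT, 287.0 and 294.6 in cGAS, 282.6 and 280.6 in cGAS_YT, 299.8 and 295.1 in STING, and 274.5 and 275.0 in STING_YT. Its lowest group was YT, at 85.9% of control, and in cGAS_YT it stood at 96.9%. The sums are dominated by the most abundant genes of each class and were given no test. They are shares of scaled reads, so they measure neither the number of cells nor the total RNA per cell. In bulk samples, a change in some cells and a change in all cells cannot be told apart.

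**Figure D1:**
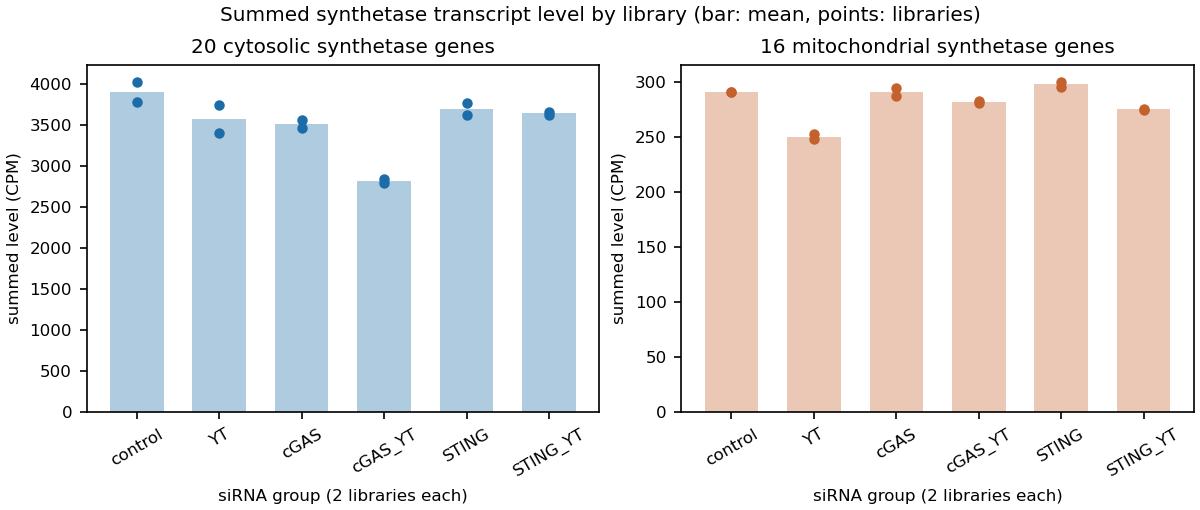
Summed level in CPM of the 20 cytosolic (left) and 16 mitochondrial (right) synthetase genes in the 6 siRNA groups. Bars are means and points the 2 libraries. The 2 cGAS_YT libraries, at 2838 and 2788 CPM, are the lowest for the cytosolic class, and the 2 YT libraries, at 252.0 and 247.5 CPM, for the mitochondrial class.

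Across the 6 groups, 20 of 20 cytosolic and 7 of 16 mitochondrial genes differed by limma's F test at an adjusted p under 0.05, the threshold used throughout, against 75.7% of all genes tested. The mitochondrial genes that passed were AARS2, CARS2, EARS2, IARS2, LARS2, RARS2 and WARS2. HARS2, TARS2, YARS2, FARS2, SARS2, VARS2, MARS2, PARS2 and NARS2 did not pass. Changes below are on the scale log2(CPM + 1), which understates the change of low genes, and each is given with its standard error. "Rose" and "fell" are used of genes that passed in that comparison.

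**Figure D2:**
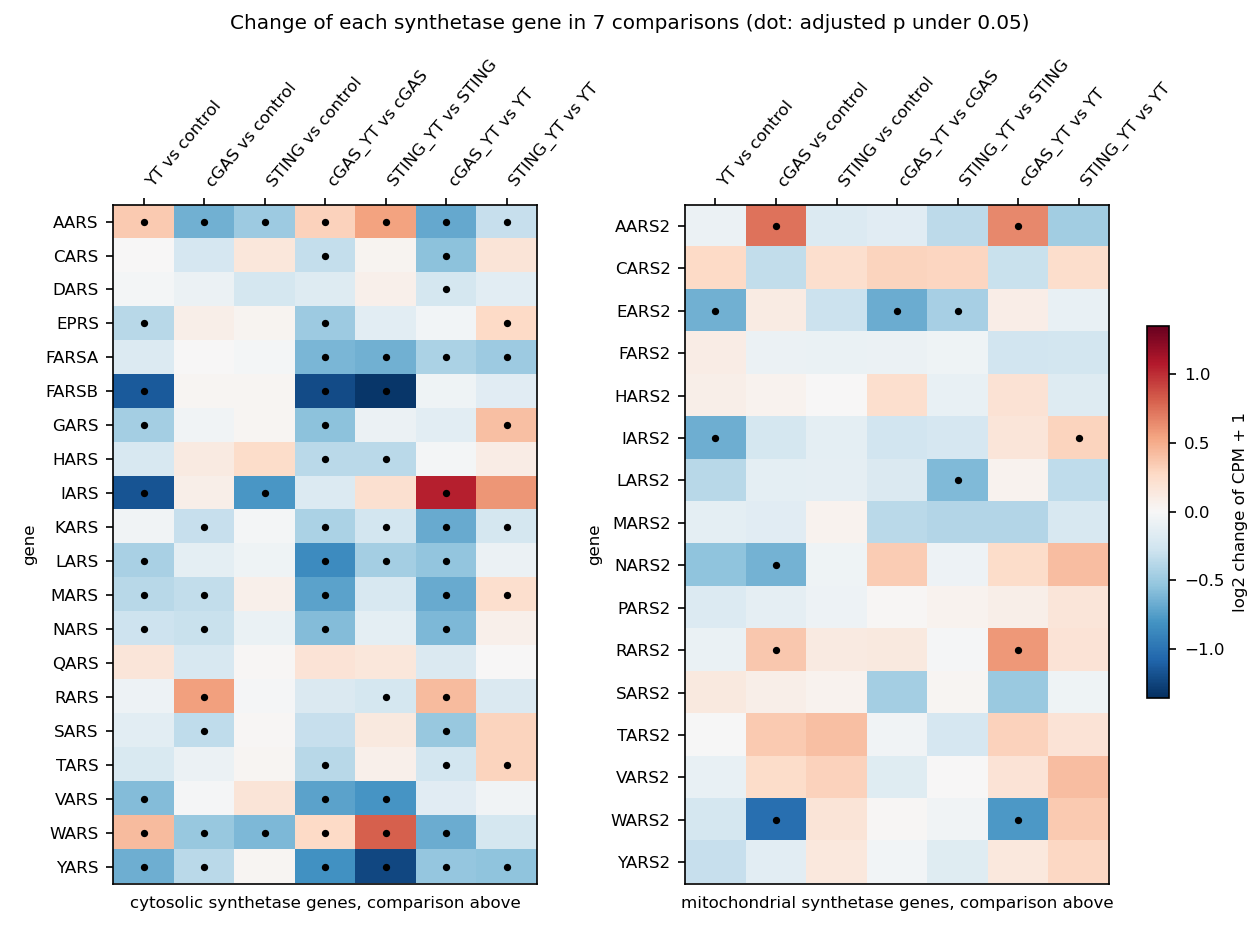
Log2 change of CPM + 1 (colour, red higher and blue lower in the first-named group) of each cytosolic (left) and mitochondrial (right) synthetase gene in 7 comparisons of 2 groups. A dot marks an adjusted p under 0.05. FARSB, VARS, LARS and YARS are lower, and AARS and WARS higher, in all 3 comparisons that add YAP/TAZ siRNAs, and few mitochondrial genes carry a dot.

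With YAP/TAZ siRNAs many cytosolic synthetases fell, and AARS and WARS rose. In YT against control 9 of 20 cytosolic genes fell and 2 rose, while 20.9% of all tested genes fell and 20.6% rose. The genes that fell were EPRS, FARSB, GARS, IARS, LARS, MARS, NARS, VARS and YARS. Of the mitochondrial genes EARS2 and IARS2 fell and none of 16 rose by limma, edgeR or DESeq2, with 1 higher at an unadjusted p under 0.05. The median change was -0.21 over the cytosolic class, -0.12 over the mitochondrial class and 0.00 over all genes. Without control replicate 2 the cytosolic median was 0.0136 above the mitochondrial one. Among genes below 30 CPM 33.0% passed in this comparison, and the mitochondrial class is mostly below that level. At 30 CPM or more, where all 20 cytosolic genes lie, 54.3% passed, 27.9% lower and 26.4% higher.

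FARSB codes for the beta subunit of cytosolic phenylalanyl-tRNA synthetase, which pairs with the alpha subunit FARSA. FARSB (chr2:222570536-222656337 on GRCh38, minus strand) was at 63.9 and 73.1 CPM in control, 29.6 and 31.7 in YT, 66.1 and 73.1 in cGAS, 32.3 and 26.8 in cGAS_YT, 68.6 and 70.9 in STING and 24.98 and 30.3 in STING_YT. Every library with YAP/TAZ siRNAs was below every library without them. FARSB fell in YT by a log2 change of -1.13 ± 0.12 (SE, adjusted p = 1.4e-06), a level of 44.8% of control. FARSA was at 115 and 128 CPM in control and 93.5 and 121 in YT, groups that overlapped, and its change was -0.19 ± 0.11 (SE, adjusted p = 0.197). The ratio of FARSB to FARSA was 0.56 and 0.57 in control and 0.32 and 0.26 in YT. It was 0.57 and 0.57 in cGAS, 0.55 and 0.62 in STING, 0.39 and 0.36 in cGAS_YT and 0.34 and 0.39 in STING_YT, so that the 6 libraries with YAP/TAZ siRNAs again lay below the 6 without.

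YARS, the cytosolic tyrosyl-tRNA synthetase, was at 137 and 139.8 CPM in control and 88.3 and 86.9 in YT. It fell by 0.65 ± 0.08 (SE, adjusted p = 5.5e-06), to 63.3% of control. VARS, the valyl enzyme, was at 46.2 and 51.2 CPM in control and 31.0 and 33.4 in YT, and fell by 0.58 ± 0.11 (SE, adjusted p = 3.6e-04). In both genes the libraries of the 2 groups were well apart. Smaller decreases were those of GARS, the glycyl enzyme (-0.46 ± 0.09), LARS, the leucyl enzyme (-0.44 ± 0.09), EPRS, which charges glutamate and proline (-0.37 ± 0.07), MARS, the methionyl enzyme (-0.37 ± 0.08), and NARS, the asparaginyl enzyme (-0.28 ± 0.08).

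IARS, the cytosolic isoleucyl-tRNA synthetase, was at 113 and 122 CPM in control but at 80.1 and 33.4 in YT replicates 3 and 4, which differed from each other more than those of any other group for this gene. It fell by 1.17 ± 0.23 (SE, adjusted p = 7.4e-04). The decrease was -0.55 without YT replicate 4 and -1.78 without YT replicate 3, and it passed either way. IARS2, its mitochondrial counterpart, was at 77.2 and 69.2 CPM in control and 50.9 and 41.3 in YT and fell by 0.66 ± 0.11 (SE, adjusted p = 1.5e-04). EARS2, the mitochondrial glutamyl enzyme, was at 12.9 and 14.4 CPM in control and 9.24 and 7.56 in YT and fell by 0.65 ± 0.17 (SE, adjusted p = 0.0061). All YT libraries of both mitochondrial genes were below the control libraries.

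AARS and WARS, the cytosolic alanyl and tryptophanyl enzymes, moved the other way. AARS was at 169 and 188 CPM in control and 207 and 252 in YT and rose by 0.35 ± 0.10 (SE, adjusted p = 0.0113). WARS was at 396 and 394 CPM in control and 502 and 563 in YT and rose by 0.43 ± 0.09 (SE, adjusted p = 9.2e-04). The 2 groups did not overlap in either gene. Their mitochondrial counterparts did not pass: AARS2 was at 5.71 and 5.11 CPM in control and 5.23 and 4.94 in YT, and WARS2 at 11.4 and 12.6 in control and 10.1 and 9.93 in YT. The following did not pass with 1 library (in brackets) left out, at an adjusted p from 0.0545 to 0.113: AARS (control replicate 1 or YT replicate 4), NARS (control replicate 2 or YT replicate 3) and EARS2 (control replicate 2). Calls were also lost for AARS and NARS with a constant prior and AARS and NARS with only the compared groups in the fit (adjusted p from 0.0529 to 0.112).

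**Figure D3:**
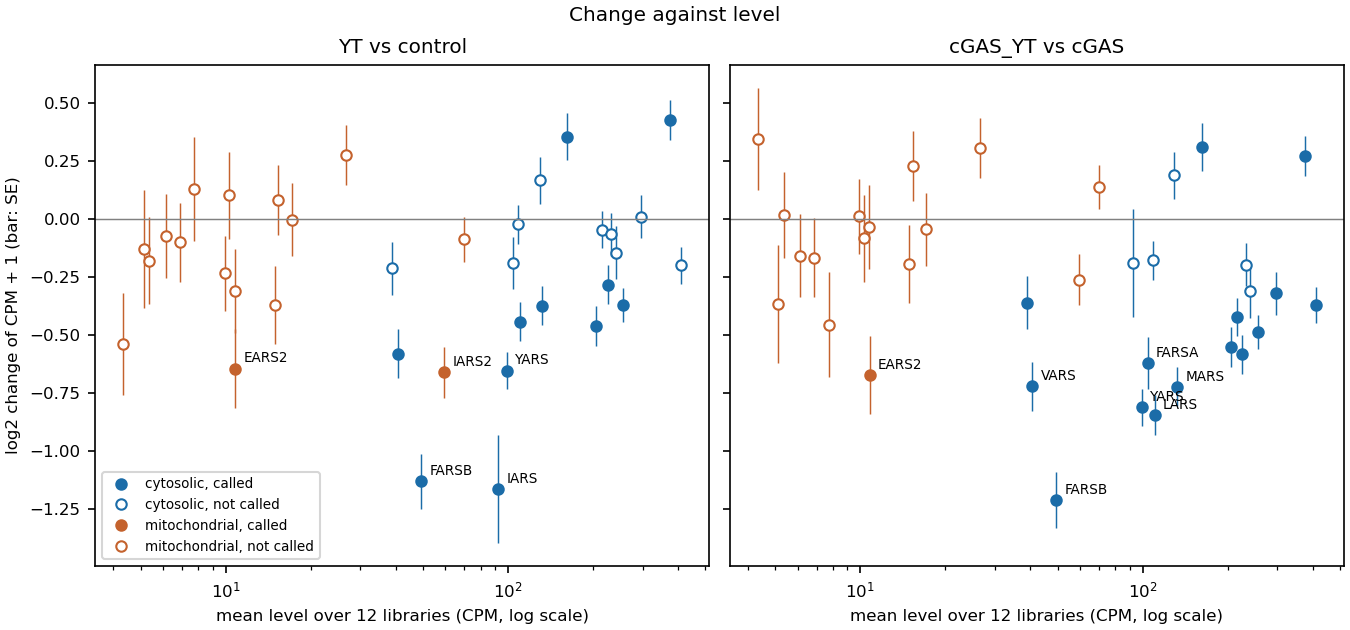
Log2 change of CPM + 1, with bars of 1 SE, against mean level over the 12 libraries (CPM, log scale) for each synthetase gene in YT against control (left) and cGAS_YT against cGAS (right). Filled points passed the test and named points passed with a change beyond 0.62. Most mitochondrial genes (orange) lie at the left with wider bars, IARS2 and RARS2 lie among the cytosolic genes, and FARSB is the lowest filled point on the right.

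With cGAS siRNA alone 7 cytosolic synthetases fell, the arginyl enzymes of both compartments rose and 3 other mitochondrial genes passed. In cGAS against control 7 of 20 cytosolic genes fell (AARS, KARS, MARS, NARS, SARS, WARS and YARS) and RARS rose, while 14.3% of all tested genes fell and 11.1% rose. At 30 CPM or more these shares were 20.4% and 15.03%. Of 16 mitochondrial genes AARS2 and RARS2 rose and NARS2 and WARS2 fell. Of all genes below 30 CPM 18.7% passed, and 3 of the 14 mitochondrial genes at that level did, a share near it. The class medians were -0.10 for both classes against -0.02 over all genes. This comparison uses the same control libraries as YT against control. In all 12 members passed, and 6 without control replicate 2 and 7 without cGAS replicate 7 or cGAS replicate 8.

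RARS, the cytosolic arginyl enzyme, was at 220.4 and 206 CPM in control and 305 and 321 in cGAS and rose by 0.55 ± 0.09 (SE, adjusted p = 3.0e-04). RARS2, its mitochondrial counterpart, was at 61.1 and 62.4 CPM in control and 74.3 and 85.3 in cGAS and rose by 0.36 ± 0.09 (SE, adjusted p = 0.01). The arginyl enzymes of both compartments thus were higher in both cGAS libraries than in both control libraries. For alanine and tryptophan the 2 compartments differed. AARS was at 108 and 119.6 CPM in cGAS, below both control libraries, and fell by 0.65 ± 0.10 (SE, adjusted p = 2.2e-04). AARS2 was at 5.71 and 5.11 CPM in control and 9.64 and 9.67 in cGAS and rose by 0.73 ± 0.18 (SE, adjusted p = 0.0065). The AARS to AARS2 ratio was 29.6 and 36.7 in control and 11.2 and 12.4 in cGAS. WARS was at 279.8 and 273 CPM in cGAS and fell by 0.52 ± 0.09 (SE, adjusted p = 3.7e-04). WARS2 was at 11.4 and 12.6 CPM in control and 5.48 and 5.30 in cGAS and fell by 1.02 ± 0.16 (SE, adjusted p = 2.0e-04), to 45.1% of control.

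YARS was at 108 and 107 CPM in cGAS, lower than in control, and fell by 0.36 ± 0.08 (SE, adjusted p = 0.00277). NARS2, the mitochondrial asparaginyl enzyme, was at 5.40 and 5.28 CPM in control and 3.43 and 2.75 in cGAS and fell by 0.64 ± 0.22 (SE, adjusted p = 0.0429). These are among the lowest levels of any member, and edgeR and DESeq2 on recovered reads did not call NARS2. The other decreases were -0.31 (KARS, the lysyl enzyme), -0.33 (MARS), -0.31 (NARS) and -0.34 (SARS, the seryl enzyme). With the library in brackets left out, KARS (control replicate 2 or either library of cGAS), MARS (control replicate 2 or cGAS replicate 7), NARS (control replicate 2 or either library of cGAS), SARS (either library of control, cGAS, STING or STING_YT), AARS2 (control replicate 2), NARS2 (either library of control, cGAS, STING or STING_YT) and RARS2 (control replicate 1 or cGAS replicate 8) no longer passed (adjusted p from 0.0527 to 0.27). Also not passing were NARS and SARS with a constant prior, SARS with median-of-ratios scaling, NARS2 in edgeR and NARS2 in DESeq2 (adjusted p from 0.0518 to 0.127).

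**Figure D4:**
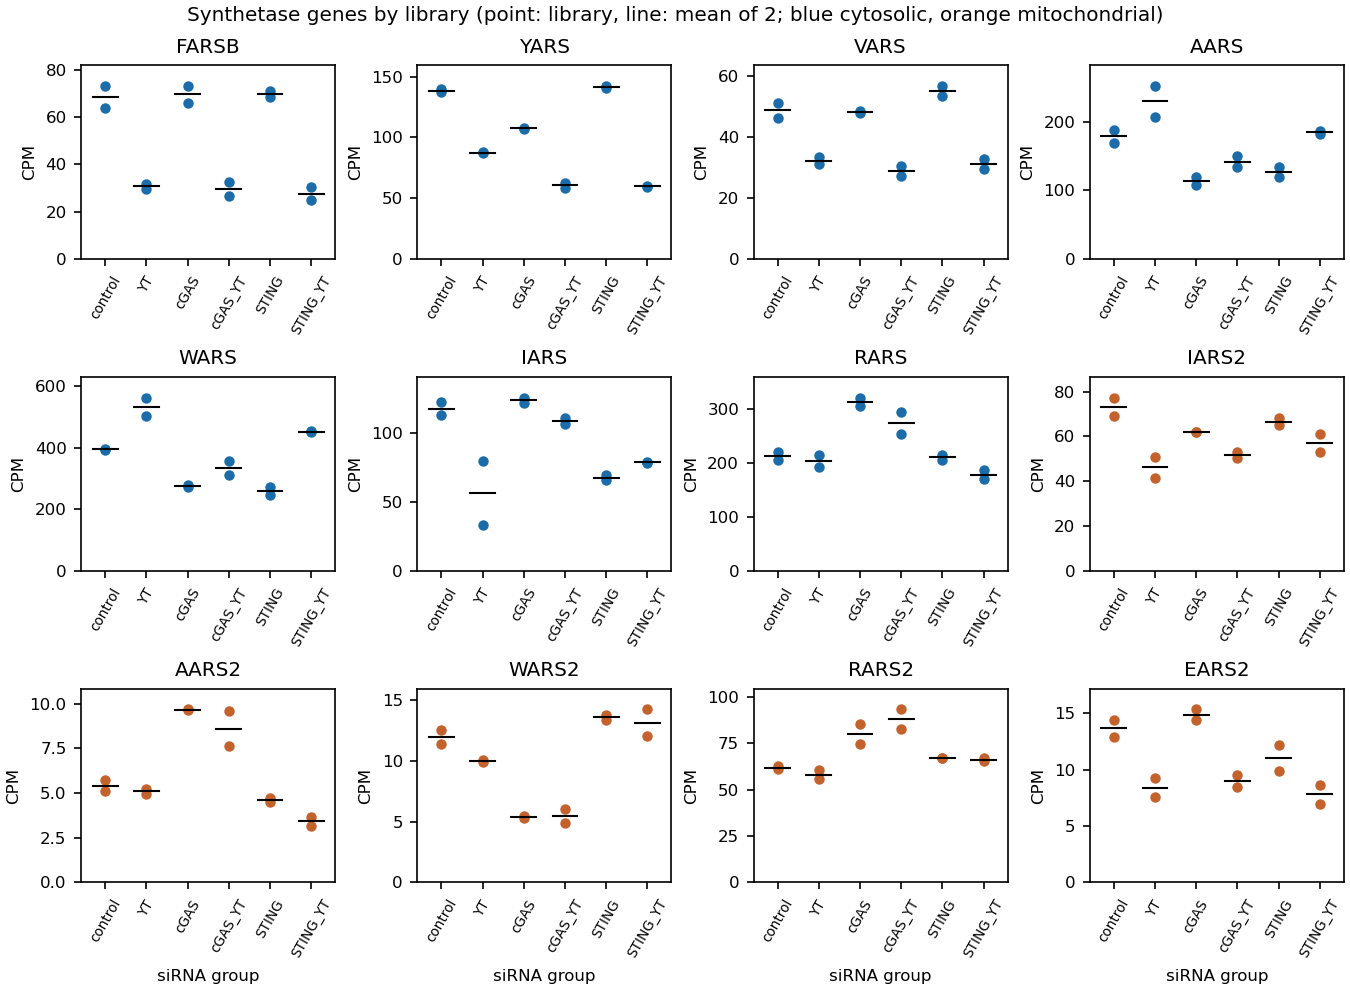
Level in CPM (linear axis from 0) of 12 synthetase genes in the 6 siRNA groups, with 1 point per library and a line at the mean of 2. FARSB, YARS and VARS are low in the 3 groups with YAP/TAZ siRNAs, AARS2 and RARS are high and WARS2 low in the 2 groups with cGAS siRNA, and the 2 YT libraries of IARS are far apart, at 80.1 and 33.4 CPM.

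After STING knockdown alone few synthetases changed. In STING against control AARS, IARS and WARS fell, 3 of 20 cytosolic genes, and none rose, while 8.86% of all tested genes fell and 6.14% rose. At 30 CPM or more 13.6% fell, a share near that of the cytosolic genes. edgeR also gave 0 higher and 3 lower, DESeq2 0 and 2, and limma without adjustment 1 and 4. None of 16 mitochondrial genes passed by limma, edgeR or DESeq2, with 1 higher and 0 lower at an unadjusted p under 0.05. WARS was at 271 and 247 CPM in STING, below control, and fell by 0.61 ± 0.09 (SE, adjusted p = 1.8e-04). AARS was at 134 and 119 CPM and fell by 0.49 ± 0.10 (SE, adjusted p = 0.00395). IARS was at 69.4 and 66.0 CPM and fell by 0.79 ± 0.23 (SE, adjusted p = 0.031), while IARS2 was at 68.1 and 65.1 CPM, a change of -0.13 ± 0.11 that did not pass. AARS and WARS were thus lower than control both with cGAS and with STING siRNA, in comparisons that share the control libraries, while IARS in cGAS was at 122 and 126 CPM, a change of 0.08 ± 0.23 (adjusted p = 0.853). The class medians were 0.02 in both classes against 0.00 over all genes. In all 3 members passed, 1 without control replicate 2 or STING replicate 14, and 5 without YT replicate 3, without YT replicate 4, or with only the compared groups in the fit. Leaving out the library in brackets ended the call of AARS (control replicate 2 or STING replicate 14) and IARS (either library of control or STING) (adjusted p from 0.052 to 0.157). Other fits ended the calls of IARS with a constant prior and IARS in DESeq2 (adjusted p from 0.103 to 0.126).

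Adding YAP/TAZ siRNAs to cGAS siRNA lowered most cytosolic synthetases and almost no mitochondrial ones. In cGAS_YT against cGAS 13 of 20 cytosolic genes fell and AARS and WARS rose, against 12.7% of all tested genes that fell and 15% that rose. EARS2 was the only mitochondrial gene that fell, and none of 16 rose by limma, edgeR or DESeq2, with 1 higher at an unadjusted p under 0.05. The class medians were -0.40 and -0.06, against 0.03 over all genes. Of genes at 30 CPM or more 18.2% fell in this comparison, and of those below 30 CPM 8.95%. The 13 were CARS, EPRS, FARSA, FARSB, GARS, HARS, KARS, LARS, MARS, NARS, TARS, VARS and YARS.

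FARSB, at the levels given above, fell by 1.21 ± 0.12 (SE, adjusted p = 1.9e-06). YARS was at 62.9 and 58.8 CPM in cGAS_YT and fell by 0.81 ± 0.08 (SE, adjusted p = 1.5e-06). VARS was at 48.5 and 47.9 CPM in cGAS and 30.6 and 27.2 in cGAS_YT and fell by 0.72 ± 0.11 (SE, adjusted p = 9.8e-05). All 3 genes were lower in both cGAS_YT libraries than in both cGAS libraries. LARS was at 122 and 129.5 CPM in cGAS and 72.5 and 66.8 in cGAS_YT and fell by 0.85 ± 0.09 (SE, adjusted p = 2.3e-06). The 2 LARS libraries of cGAS_YT were the lowest of the 12, against 145 and 130.4 in control, 102 and 100.2 in YT, 129 and 136 in STING and 93.9 and 97.5 in STING_YT. FARSA, which had not passed in YT against control, was at 116 and 128 CPM in cGAS and 83.3 and 74.9 in cGAS_YT and fell by 0.62 ± 0.11 (SE, adjusted p = 6.0e-04). The other decreases ranged from -0.32 (CARS, the cysteinyl enzyme) to -0.72 (MARS).

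EARS2 was at 15.3 and 14.4 CPM in cGAS and 9.49 and 8.46 in cGAS_YT and fell by 0.67 ± 0.17 (SE, adjusted p = 0.0072). AARS was at 108 and 119.6 CPM in cGAS and 133 and 149 in cGAS_YT and rose by 0.31 ± 0.10 (SE, adjusted p = 0.0336), and both cGAS_YT libraries remained below control. WARS was at 279.8 and 273 CPM in cGAS and 358 and 311 in cGAS_YT and rose by 0.27 ± 0.09 (SE, adjusted p = 0.029). The following did not pass with 1 library (in brackets) left out, at an adjusted p from 0.0509 to 0.252: AARS (cGAS_YT replicate 10 or either library of cGAS or STING_YT), CARS (either library of cGAS or cGAS_YT), HARS (cGAS replicate 8 or either library of cGAS_YT), WARS (cGAS_YT replicate 9 or either library of cGAS) and EARS2 (cGAS replicate 7 or cGAS_YT replicate 10). Calls were also lost for AARS, CARS, HARS and WARS with a constant prior (adjusted p from 0.0559 to 0.11).

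Seen from the YT group, adding cGAS siRNA lowered 12 of 20 cytosolic genes (AARS, CARS, DARS, FARSA, KARS, LARS, MARS, NARS, SARS, TARS, WARS and YARS) and raised IARS and RARS, against 20.2% and 20.5% of all genes. At 30 CPM or more 28.1% fell and 24.98% rose. Of the mitochondrial genes AARS2 and RARS2 rose and WARS2 fell. The class medians were -0.33 and 0.11, on either side of the 0.00 of all genes. KARS was at 235 and 249 CPM in YT and 151 and 149 in cGAS_YT and fell by 0.69 ± 0.08 (SE, adjusted p = 4.6e-06). MARS was at 121 and 124 CPM in YT and 76.7 and 75.4 in cGAS_YT and fell by 0.68 ± 0.08 (SE, adjusted p = 8.1e-06). The cGAS_YT libraries of both genes were the lowest of the 12, the KARS levels elsewhere being 236 and 264 in control, 203 and 200.3 in cGAS, 254 and 236 in STING and 211 and 199.9 in STING_YT. MARS was at 149.7 and 168 CPM in control, 123 and 129 in cGAS, 164 and 169.6 in STING and 151 and 137 in STING_YT.

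WARS, at the levels given above, fell by 0.67 ± 0.09 (SE, adjusted p = 1.3e-05) in cGAS_YT against YT. AARS fell by 0.69 ± 0.10 (SE, adjusted p = 5.7e-05). RARS was at 192 and 216 CPM in YT and 294 and 253 in cGAS_YT and rose by 0.42 ± 0.09 (SE, adjusted p = 0.0015). RARS2 was at 55.8 and 60.3 CPM in YT and 82.5 and 93.1 in cGAS_YT and rose by 0.59 ± 0.09 (SE, adjusted p = 1.2e-04). AARS2 was at 5.23 and 4.94 CPM in YT and 7.60 and 9.60 in cGAS_YT and rose by 0.65 ± 0.18 (SE, adjusted p = 0.00845). WARS2 was at 10.1 and 9.93 CPM in YT and 4.91 and 6.02 in cGAS_YT and fell by 0.77 ± 0.16 (SE, adjusted p = 0.00112). RARS, RARS2, AARS2 and WARS2 thus moved the same way with cGAS siRNA whether or not YAP/TAZ siRNAs were present, in 2 comparisons that share no library. So did AARS, KARS, MARS, NARS, SARS, WARS and YARS, which fell in both. IARS was at 106 and 111 CPM in cGAS_YT and rose by 1.05 ± 0.23 (SE, adjusted p = 0.00176), by 0.43 without YT replicate 4 and 1.67 without YT replicate 3. SARS was at 206 and 277 CPM in YT and 159 and 176 in cGAS_YT and fell by 0.51 ± 0.12 (SE, adjusted p = 0.00216), a change of -0.30 without YT replicate 4. With the library in brackets left out, DARS (YT replicate 4, cGAS_YT replicate 10 or either library of cGAS, STING or STING_YT), FARSA (YT replicate 4 or cGAS_YT replicate 10), TARS (cGAS_YT replicate 9) and AARS2 (cGAS_YT replicate 10) no longer passed (adjusted p from 0.0521 to 0.227). Also not passing were DARS and TARS with a constant prior and DARS, FARSA and TARS with only the compared groups in the fit (adjusted p from 0.0549 to 0.175).

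Adding YAP/TAZ siRNAs to STING siRNA lowered 8 of 20 cytosolic genes (FARSA, FARSB, HARS, KARS, LARS, RARS, VARS and YARS) and again raised AARS and WARS, against 19.8% of all genes that fell and 19.1% that rose. At 30 CPM or more 28.3% fell and 22.4% rose, 50.7% in all, so that the 10 of 20 cytosolic genes that passed were near the share of genes at their level. EARS2 and LARS2 fell among the mitochondrial genes, and none of 16 rose by limma, edgeR or DESeq2, with 1 higher at an unadjusted p under 0.05. The class medians were -0.13 and -0.09, against 0.03 over all genes. Without STING replicate 14 or STING_YT replicate 15 the cytosolic median was no longer below the mitochondrial one. YARS was at 142 and 140.3 CPM in STING and 59.2 and 60.4 in STING_YT and fell by 1.23 ± 0.08 (SE, adjusted p = 5.5e-09). Its STING_YT mean was 43.2% of the mean of the control group. FARSB fell by 1.31 ± 0.12 (SE, adjusted p = 2.9e-07). VARS was at 56.7 and 53.5 CPM in STING and 29.5 and 32.9 in STING_YT and fell by 0.80 ± 0.11 (SE, adjusted p = 1.7e-05). The STING_YT libraries of all 3 genes lay far below the STING libraries.

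WARS was at 455 and 450.0 CPM in STING_YT and rose by 0.80 ± 0.09 (SE, adjusted p = 2.0e-06) over STING, and AARS was at 187 and 182 CPM and rose by 0.54 ± 0.10 (SE, adjusted p = 5.6e-04). LARS2, the mitochondrial leucyl enzyme, was at 15.2 and 17.8 CPM in STING and 11.9 and 9.30 in STING_YT and fell by 0.60 ± 0.17 (SE, adjusted p = 0.00961). Its levels were 20.9 and 15.5 CPM in control, 12.8 and 14.6 in YT, 16.8 and 15.9 in cGAS and 13.5 and 14.8 in cGAS_YT. EARS2 was at 12.2 and 9.87 CPM in STING and 8.66 and 6.96 in STING_YT and fell by 0.45 ± 0.17 (SE, adjusted p = 0.0465), the third comparison with YAP/TAZ siRNAs in which it fell. Leaving out the library in brackets ended the call of HARS (STING replicate 14 or STING_YT replicate 15), KARS (STING replicate 13 or either library of STING_YT), RARS (either library of control, cGAS, STING or STING_YT), EARS2 (STING replicate 13, STING_YT replicate 16 or either library of control, cGAS or cGAS_YT) and LARS2 (STING replicate 14 or STING_YT replicate 16) (adjusted p from 0.0501 to 0.311). Other fits ended the calls of KARS and RARS with a constant prior and RARS in edgeR (adjusted p from 0.0549 to 0.124).

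Seen from the YT group, adding STING siRNA raised EPRS, GARS, MARS and TARS and lowered AARS, FARSA, KARS and YARS, 4 and 4 of 20 cytosolic genes against 16% of all genes that rose and 18% that fell. At 30 CPM or more 19.1% rose and 26.7% fell, near the cytosolic shares. GARS was at 157 and 179 CPM in YT and 219 and 226 in STING_YT and rose by 0.41 ± 0.09 (SE, adjusted p = 0.00165), which brought it close to the 218 and 245 CPM of control. TARS, the threonyl enzyme, was at 383 and 376 CPM in YT and 472 and 462 in STING_YT and rose by 0.30 ± 0.08 (SE, adjusted p = 0.00773). EPRS was at 208 and 221 CPM in YT and 258 and 259 in STING_YT and rose by 0.27 ± 0.07 (SE, adjusted p = 0.00986). These 3 genes were higher in both STING_YT libraries than in both YT libraries. YARS was at 88.3 and 86.9 CPM in YT and 59.2 and 60.4 in STING_YT, a further change of -0.54 ± 0.08 (SE, adjusted p = 5.6e-05). FARSA was at 93.5 and 121 CPM in YT and 73.5 and 77.6 in STING_YT and fell by 0.49 ± 0.11 (SE, adjusted p = 0.00316). The FARSA change was -0.30 without YT replicate 4. AARS was at 207 and 252 CPM in YT and 187 and 182 in STING_YT and fell by 0.31 ± 0.10 (SE, adjusted p = 0.0296).

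IARS2 was the only mitochondrial gene that passed in STING_YT against YT. It was at 50.9 and 41.3 CPM in YT and 52.9 and 61.1 in STING_YT and rose by 0.30 ± 0.11 (SE, adjusted p = 0.0417). edgeR called 1 mitochondrial gene higher and DESeq2 0. None of 16 fell by limma, edgeR or DESeq2, with 3 higher and 1 lower at an unadjusted p under 0.05. The class medians were -0.02 and 0.17, against 0.01 over all genes. In all 9 members passed, and 4 without STING_YT replicate 15, without STING_YT replicate 16 or with only the compared groups in the fit. The following did not pass with 1 library (in brackets) left out, at an adjusted p from 0.0523 to 0.315: AARS (YT replicate 4 or either library of STING_YT), EPRS (either library of STING_YT), KARS (YT replicate 4 or either library of cGAS or STING_YT), MARS (YT replicate 3 or either library of cGAS, cGAS_YT, STING or STING_YT), TARS (STING_YT replicate 15) and IARS2 (YT replicate 4, STING_YT replicate 16 or either library of cGAS or STING). Calls were also lost for AARS, KARS, MARS and IARS2 with a constant prior, AARS, EPRS, KARS, MARS and IARS2 with only the compared groups in the fit, MARS with median-of-ratios scaling and MARS and IARS2 in DESeq2 (adjusted p from 0.0539 to 0.151).

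Whether the change with YAP/TAZ siRNAs itself differed with the second siRNA was tested as an interaction. With cGAS siRNA, 2 of 36 members passed, against 13.4% of all genes, namely LARS and KARS. The LARS change with YAP/TAZ siRNAs was -0.44 without cGAS siRNA and -0.85 with it, a difference of -0.40 ± 0.12 (SE, adjusted p = 0.0351). The KARS change was -0.05 without and -0.42 with it, a difference of -0.38 ± 0.11 (SE, adjusted p = 0.0381). None was higher by limma, edgeR or DESeq2, with 3 higher at an unadjusted p under 0.05. LARS and KARS are both enzymes of the multisynthetase complex, but the other 6 of its 8 enzymes did not pass. The median difference was -0.14 over the enzymes of the complex and -0.16 over the cytosolic enzymes outside it. The other 18 cytosolic genes did not pass, at a median difference of -0.16 over the class. DESeq2 called 3 lower. Without YT replicate 3, 10 of the 36 members passed. With the library in brackets left out, KARS (control replicate 1 or either library of cGAS, cGAS_YT, STING or STING_YT) and LARS (control replicate 2, cGAS_YT replicate 10 or either library of cGAS, STING or STING_YT) no longer passed (adjusted p from 0.0537 to 0.145). Also not passing were KARS and LARS with a constant prior and KARS and LARS with only the compared groups in the fit (adjusted p from 0.0901 to 0.125).

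With STING siRNA, 2 of 36 members passed, against 7.88% of all genes. The YARS change with YAP/TAZ siRNAs was -0.65 without STING siRNA and -1.23 with it, a difference of -0.57 ± 0.11 (SE, adjusted p = 0.0037). IARS changed by -1.17 without STING siRNA and by 0.22 with it, a difference of 1.38 ± 0.33 (SE, adjusted p = 0.0151). The IARS difference was 0.76 without YT replicate 4, and IARS was at 69.4 and 66.0 CPM in STING and 79.0 and 78.6 in STING_YT, both below control. Without YT replicate 3 there were 4 members that passed, and without YT replicate 4 there were 5. Leaving out the library in brackets ended the call of IARS (control replicate 2 or either library of STING or STING_YT) (adjusted p from 0.0506 to 0.0666). Other fits ended the calls of IARS with a constant prior and IARS in DESeq2 (adjusted p from 0.0802 to 0.102). None of the 16 mitochondrial genes passed in either interaction by limma, edgeR or DESeq2, with 2 higher for cGAS and 1 higher for STING at an unadjusted p under 0.05.

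The scaffold genes of the multisynthetase complex fell with YAP/TAZ siRNAs along with enzymes inside and outside the complex. EEF1E1 changed by -1.15 ± 0.14 (SE, adjusted p = 6.8e-06), AIMP2 by -0.95 ± 0.14 (SE, adjusted p = 5.3e-05) and AIMP1 by -0.51 ± 0.10 (SE, adjusted p = 6.9e-04) in YT against control, 3 of 3 lower. All 3 also fell in cGAS_YT against cGAS, and EEF1E1 and AIMP2 in STING_YT against STING. With cGAS siRNA alone EEF1E1 fell by 0.45 ± 0.14 (SE, adjusted p = 0.0262). Of the 8 enzymes of the complex 4 fell and 0 rose in YT against control, with a median change of -0.22, and of the 12 cytosolic enzymes outside it 5 fell and 2 rose, with a median of -0.21. In cGAS_YT against cGAS 4 of 8 fell inside the complex and 9 of 12 outside it, with medians of -0.31 and -0.46. In STING_YT against STING 3 of 8 fell inside it and 5 of 12 outside it, with medians of -0.18 and -0.10. Of all genes at 30 CPM or more 27.9% fell in the first of these comparisons, 18.2% in the second and 28.3% in the third. This split of the cytosolic genes was made after their values were seen.

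Genes of the ATF4 response moved in different directions in the different groups. Of 24 such genes 9 fell and 5 rose in YT against control, where 20.9% of all genes fell and 20.6% rose. SLC7A5, an amino acid transporter, changed by -0.98 ± 0.10 (SE, adjusted p = 1.3e-06), while CEBPB, a C/EBP factor, changed by 1.40 ± 0.11 (SE, adjusted p = 5.2e-08) and ATF3, a stress-induced factor, by 1.45 ± 0.14 (SE, adjusted p = 3.5e-07). In cGAS against control 13 fell and 2 rose, beside 14.3% and 11.1% of all genes. CHAC1, which degrades glutathione, changed by -1.39 ± 0.11 (SE, adjusted p = 1.2e-07), TRIB3, a pseudokinase, by -0.96 ± 0.10 (SE, adjusted p = 2.9e-06) and STC2, a secreted glycoprotein, by 0.69 ± 0.08 (SE, adjusted p = 1.2e-05). In STING against control 2 fell and 1 rose, beside 8.86% and 6.14% of all genes. In cGAS_YT against cGAS 11 fell and 4 rose, beside 12.7% and 15%, and in cGAS_YT against YT 13 fell and 3 rose, beside 20.2% and 20.5%. Where STING siRNA was combined with YAP/TAZ siRNAs more rose than fell. In STING_YT against STING 11 rose and 4 fell, beside 19.1% and 19.8% of all genes, and in STING_YT against YT 14 rose and 3 fell, beside 16% and 18%.

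The cytosolic synthetases with the TGATGNAA letters in their promoters, shown above, can be set beside this list. Their median change was -0.28 in YT against control and -0.23 in cGAS against control, and that of the 9 cytosolic genes whose promoters lacked the letters -0.15 and 0.01. DARS, LARS, VARS and YARS had no promoter entry and are in neither set. In YT against control they changed by -0.02, -0.44, -0.58 and -0.65, so the medians depend on which genes had an entry. In cGAS_YT against cGAS the medians with and without the letters were nearly the same, -0.37 and -0.36, and in STING against control both were 0.02. In STING_YT against STING they were 0.04 and -0.24. In cGAS_YT against YT the medians were -0.56 with the letters and -0.20 without. In STING_YT against YT they were 0.23 and -0.15. GARS, MARS and TARS, with the letters, rose, and AARS, also with the letters, fell. Among the genes without the letters EPRS rose and FARSA and KARS fell. The ATF4 list had medians of -0.41 and 0.48 in the same 2 comparisons. Its medians were -0.12 in YT, -0.32 in cGAS and -0.03 in STING, each against control. They were -0.26 in cGAS_YT against cGAS and 0.23 in STING_YT against STING. AARS, which holds the letters, rose in YT against control while ASNS, another textbook ATF4 target, fell by 0.39 ± 0.15 (SE, adjusted p = 0.0452). No test was made of these medians, and their comparisons share libraries.

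**Figure D5:**
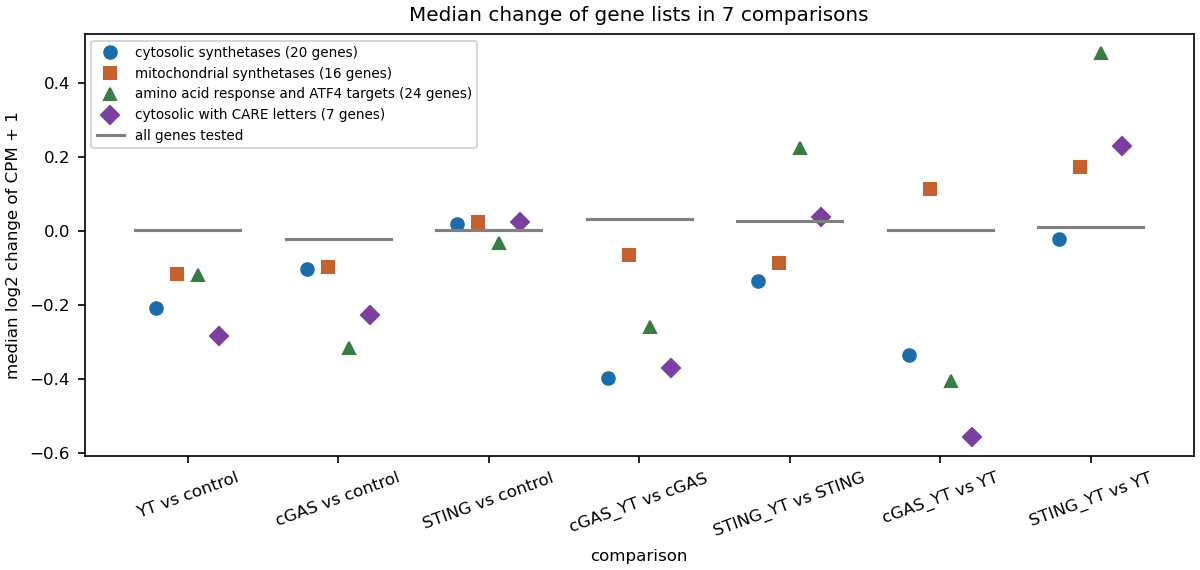
Median log2 change of CPM + 1 in 7 comparisons for the cytosolic and mitochondrial synthetases, the list of 24 ATF4-response genes and the 7 cytosolic synthetases with the TGATGNAA letters. Grey lines mark the median over all tested genes. In cGAS_YT against YT the cytosolic medians lie below the grey line and the mitochondrial median above it.

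WARS moved against most interferon-stimulated genes with cGAS siRNA, but with IRF1 in most comparisons. In cGAS against control 4 of 5 such genes rose and 1 fell, beside 11.1% and 14.3% of all genes. Among those that rose were IFIT1 (3.90 ± 0.30 (SE, adjusted p = 1.1e-07)), MX1 (5.46 ± 0.41 (SE, adjusted p = 1.1e-07)) and ISG15 (3.21 ± 0.25 (SE, adjusted p = 1.6e-07)). IRF1 fell by 0.54 ± 0.08 (SE, adjusted p = 1.3e-04), and WARS fell as well. In YT against control IRF1, an interferon-induced transcription factor, changed by 1.34 ± 0.08 (SE, adjusted p = 2.2e-09) and MX1 by 1.65 ± 0.41 (SE, adjusted p = 0.00422), 2 of 5 higher, and WARS rose. Of all genes 20.6% rose and 20.9% fell in that comparison. IRF1 rose in all 3 comparisons that add YAP/TAZ siRNAs and fell in the others, as WARS did in all of these but STING_YT against YT, where WARS changed by -0.23 ± 0.09 (adjusted p = 0.05). In STING against control 2 of 5 fell and 0 rose, beside 8.86% and 6.14% of all genes. In cGAS_YT against YT GBP1, IFIT1, MX1 and ISG15 rose and IRF1 fell, beside 20.5% and 20.2%. Only IRF1 passed in cGAS_YT against cGAS, and IRF1 and MX1 rose in STING_YT against STING, where 15% and 19.1% of all genes rose. In STING_YT against YT IFIT1 rose and IRF1 and GBP1 fell, beside 16% and 18%. IRF1 was singled out after its values were seen.

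Other genes of translation were counted beside the synthetases. Of all tested genes 20.9% fell and 20.6% rose in YT against control, and 14.3% fell and 11.1% rose in cGAS against control. Of 18 tested genes of transfer RNA maturation and export 6 fell and 1 rose in YT against control. TSEN15, a subunit of the splicing endonuclease, changed by -1.03 ± 0.15 (SE, adjusted p = 3.4e-05), POP1, of ribonuclease P, by -0.62 ± 0.12 (SE, adjusted p = 6.2e-04) and XPOT, the export receptor for transfer RNA, by -0.72 ± 0.19 (SE, adjusted p = 0.00591). Both XPOT and TSEN15 also fell in cGAS against control, with changes of -0.60 ± 0.19 (SE, adjusted p = 0.0277) and -0.42 ± 0.15 (SE, adjusted p = 0.0464). Of 4 cytosolic elongation factor genes EEF1B2, an exchange factor of the elongation complex, fell in both comparisons, with changes of -0.52 ± 0.09 (SE, adjusted p = 1.6e-04) and -0.27 ± 0.09 (SE, adjusted p = 0.0307), and 0 rose. Of 13 mitochondrial translation factors MTFMT, which formylates the initiator transfer RNA, rose in both, by 0.62 ± 0.16 (SE, adjusted p = 0.00473) and 0.65 ± 0.16 (SE, adjusted p = 0.00654). GFM1, a mitochondrial elongation factor, fell by 0.38 ± 0.11 (SE, adjusted p = 0.011) in YT against control. TUFM, another, fell by 0.29 ± 0.10 (SE, adjusted p = 0.0364) in cGAS against control.

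Fibroblast markers changed too: 3 of 8 fell and 0 rose in YT against control, where 20.9% of all tested genes fell and 20.6% rose. In cGAS against control 4 of 8 fell and 0 rose, beside 14.3% and 11.1%. Of genes at 30 CPM or more, the level of these markers, 54.3% passed in YT against control and 35.4% in cGAS against control. In STING against control 1 rose and 0 fell, beside 6.14% and 8.86% of all genes. In cGAS_YT against cGAS 3 rose and 1 fell, beside 15% and 12.7%. The counts in STING_YT against YT were also 3 and 1, beside 16% and 18%. They were 2 and 1 in STING_YT against STING, beside 19.1% and 19.8%, and 2 and 2 in cGAS_YT against YT, beside 20.5% and 20.2%. Of the 2 tested markers of other cell types KRT15 fell in YT against control and in STING_YT against STING and rose in STING against control, and CD14 passed in none of the 7 comparisons. Their part in the synthetase changes was not tested.

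QARS among the cytosolic genes, and CARS2, FARS2, HARS2, MARS2, PARS2, SARS2, TARS2, VARS2 and YARS2 among the mitochondrial ones, passed in none of the 7 comparisons of 2 groups. QARS, the glutaminyl enzyme, ranged from 108 to 156 CPM over the 12 libraries. CARS2 ranged from 17.3 to 35.4 CPM, with its 2 highest libraries in STING_YT. The other 8 lay between 3.58 and 20.6 CPM. The standard errors of their log2 changes ran from 0.15 (HARS2) to 0.25 (MARS2), and changes well above 1 standard error could also fail to pass. TARS2, for example, changed by 0.36 ± 0.16 in cGAS against control (adjusted p = 0.11). DARS, the aspartyl enzyme, ranged from 94.4 to 123 CPM and passed only in cGAS_YT against YT, at -0.23 ± 0.08.

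Some members share ground with other genes. HARS and HARS2 overlap head to head on opposite strands of chromosome 5, and code for closely similar enzymes. HARS also overlaps WDR55 on the opposite strand. KARS overlaps TERF2IP, MARS overlaps ARHGAP9 and DDIT3, WARS overlaps WDR25, YARS overlaps S100PBP, CARS2 overlaps ING1, EARS2 overlaps UBFD1, SARS2 overlaps MRPS12 and YARS2 overlaps DNM1L on the opposite strand, and HARS2 overlaps ZMAT2 and VARS2 overlaps GTF2H4 on the same strand. The strand setting of the counting is not given in the sources used here, so reads that fall in a shared stretch could not be told apart. HARS and HARS2 share only their 5′ ends, and these libraries were read from 3′ ends. Which of the other overlaps, that of HARS with WDR55 included, reach a 3′ end was not examined. DDIT3, an ATF4-response gene, rose in YT against control by 0.42 ± 0.09 while MARS fell.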

How the data were processed

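Poly(A) RNA of 12 libraries was sequenced from its 3′ ends (QuantSeq kit, per the labels' protocols). Per the submitters' processing notes the tools were STAR 2.5.3a, featureCounts and edgeR on hg38; the strand setting and the annotation were not given in the sources used here. Each deposited value is a signal, CPM that the authors had scaled, as the values show. Dividing each value by the worth of 1 read in its library gave whole reads, within 0.01 reads, for 100% of values. The worth of 3 reads, the limit for a listed 0, was 0.142 to 0.170 CPM and covers counting error only.

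The planned test, made for plain CPM, was not changed. It was limma 3.58.1 (R 4.3.3) on log2(CPM + 1) with a trended prior (6 residual and 10.1 prior degrees of freedom), all 12 libraries in 1 fit, on the 13894 genes that reached 1 CPM in 2 or more libraries. P-values were adjusted by Benjamini-Hochberg over all genes within each of 7 comparisons, 2 interactions and an F test over 6 groups, at 0.05. Alternatives were a pseudocount of 0.25 or 4, no filter, a minimum of 5 CPM, median-of-ratios scaling, a constant prior, only the compared groups, edgeR 4.0.16 (quasi-likelihood) and DESeq2 1.42.0 on recovered reads, and each library left out. The limma step was tested on simulated data.

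Members and lists were chosen with earlier results of these data known, the promoter letters and the split by multisynthetase complex after seeing the values. The genes named with values in every library were, per comparison, class and direction, the 3 with the smallest adjusted p among those that passed, the members that passed in an interaction, and WARS, AARS, AARS2, IARS and IARS2; of each other list, up to 3 genes in YT and in cGAS against control. SARS was named with values after they were seen, and so were ASNS, DDIT3 and, in every comparison but YT against control, IRF1. One planned gene of the interferon list is not reported here. Replicate numbers occur once each in the labels, so nothing pairs the libraries across groups. Positions came from GENCODE release 29 on GRCh38.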

Additional observations from a re-analysis of the deposited data

Results flagged for a closer look

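Among the interaction tests, 4 members showed a change with YAP/TAZ siRNAs that differed between the settings of the second siRNA. With cGAS siRNA the difference in log2 change was -0.377 for KARS and -0.403 for LARS, both lower than without it. With STING siRNA the difference was -0.573 for YARS and 1.38 for IARS. Of the 36 members 2 passed in each interaction, against 13.4% of all genes with cGAS siRNA and 7.88% with STING siRNA. Over the 12 fits that left out 1 library each, KARS lost its call in 9, LARS in 8, IARS in 5 and YARS in 0. The IARS value rests in part on 2 YT libraries at 80.1 and 33.4 CPM. Groups of 2 libraries are too small for a check of single libraries against their group.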

How the results depend on the processing

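Of 52 named changes none reversed under the alternatives run, 32 kept their call under all of them, and 20 lost it under at least 1, of which 9 only when a library was left out. Over the single libraries left out, the number of the 36 members that passed ran from 6 to 16 in cGAS against control, 1 to 5 in STING against control, 4 to 13 in STING_YT against YT, 0 to 10 in the interaction with cGAS and 1 to 5 in that with STING. With only the compared groups in the fit 5 passed in STING against control, 4 in STING_YT against YT and 0 in the interaction with cGAS. A constant prior left 0 in the interaction with cGAS and 1 in that with STING, and DESeq2 left 1 in the latter. The cause was not tested. The median change of the cytosolic minus that of the mitochondrial class ran from -0.21 to 0.0136 in YT against control, -0.12 to -0.0048 in cGAS against control, -0.13 to 0.055 in STING against control, -0.58 to -0.29 in cGAS_YT against YT and -0.35 to -0.16 in the interaction with cGAS as single libraries were left out. Of all genes, 5773 passed in YT against control and 3844 with only those groups in the fit, and 1095 passed in the interaction with STING and 703 with a constant prior. No paired analysis was possible because the groups share no replicate number. The mitochondrial genes are mostly below 30 CPM, where standard errors were larger.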
